A study of Drosophila melanogaster with 2 samples.

Results

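The 33 Rab GTPase genes of Drosophila melanogaster were examined for peaks in chromatin immunoprecipitation sequencing (ChIP-seq) of E(spl)mβ-HLH. They were every protein-coding gene on 6 chromosome arms (2L, 2R, 3L, 3R, 4 and X) whose symbol is Rab followed by a digit, or by X and a digit, with no hyphen, 33 of 13945 genes. The symbols were those of the Ensembl annotation of BDGP6. Rab3GAP1, whose symbol also begins this way, encodes a regulator of a Rab and was counted with the regulators instead. E(spl)mβ-HLH, a protein of the Enhancer of split complex, represses transcription, binds DNA through a bHLH domain, and is encoded by a target gene of Notch signalling. The study held 1 group, 2 biological replicates numbered 1 and 3, of whole embryos of both sexes aged 0 to 24 h, from a transgenic line that stably expresses the factor with GFP at its C terminus. The labels of both samples conflict, since a free-text line calls them input controls while the assay and antibody entries describe immunoprecipitation of the factor. They were read as immunoprecipitations, and every value carries that doubt. Embryos of all these ages and all their tissues were pooled, so a peak cannot be placed in a cell type, and no untagged or control sample was analysed here.

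Rab proteins are small GTPases that switch between a GTP-bound form on membranes and a GDP-bound form in the cytosol. Exchange factors load them with GTP, GTPase-activating proteins turn them off, and effectors recruited by the active form tether, move or fuse vesicles. Each Rab marks its own set of membranes, and the family is a reference set for membrane identity in eukaryotic cells. Most Rabs are ancient and used in nearly every cell, a few serve regulated secretion in neurons, and Drosophila melanogaster carries recently duplicated Rab genes on the X chromosome that are named after Rab9.

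A peak was counted for a gene when its summit lay within 1000 bp of any transcription start site (TSS) of that gene. The list that passed the authors' threshold on irreproducible discovery rate (the IDR list) has 5744 peaks, here merged into 5206 regions. Their pooled list has 30000 peaks called on both replicates together, and each replicate has a list of 30000. Peak signals are the authors' own and are set side by side only within a list, and ranks count from the strongest peak of a list. Read numbers are not part of these lists, so the depth is unknown. Where a gene had several summits in a list, the values and distances given are those of the strongest unless stated otherwise.

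An IDR summit lay at 13 of 33 Rab genes, or 39.4% (95% Wilson interval 24.7 to 56.3%), against 27.8% of all protein-coding genes. A pooled summit lay at 21 of 33, or 63.6% (46.6 to 77.8%), against 48.3% of all genes. Both intervals for the Rab genes reach the value for all genes, and they cover counting error only, with genes taken as independent. With summits inside the gene counted as well, 14 of 33 Rab genes (42.4%) had an IDR region, against 30.0% of all genes. No test was made on the list. The remaining 12 Rab genes had no pooled summit within 1000 bp, and 10 of them had none in either replicate list as well. At Rab genes with an IDR summit the signals were ordinary for the list. Their median was 295, against 329.8 over the 3877 genes with such a summit, and 5 of the 13 lay above that median. The strongest, 581 at Rab5, was far below the 5401 of the strongest IDR peak.

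**Figure D1:**
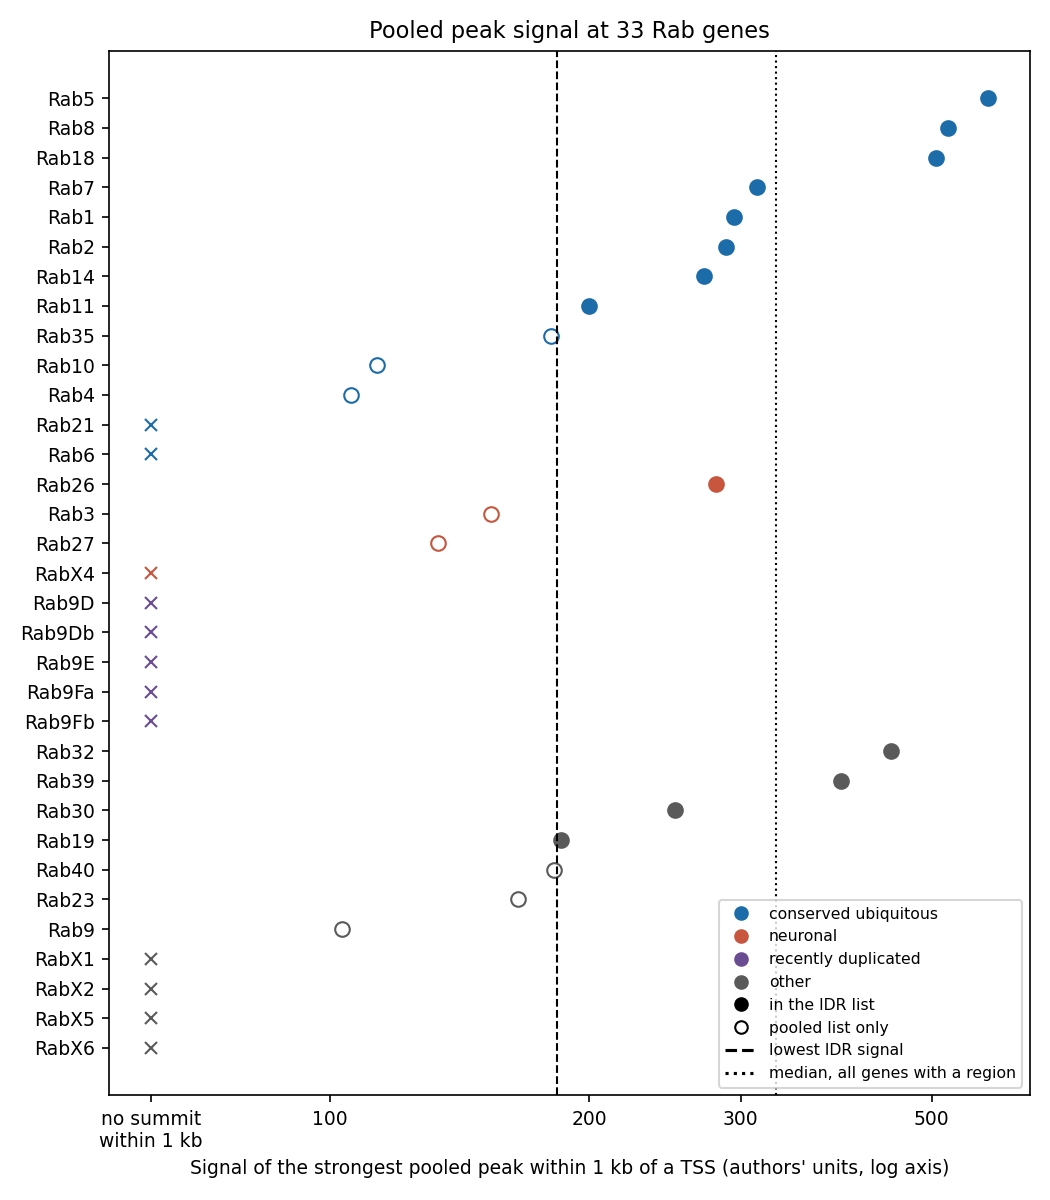
Signal of the strongest pooled peak within 1000 bp of a TSS at each of the 33 Rab genes, on a log axis in the authors' units. Filled points are in the IDR list, open points in the pooled list only, and crosses mark 12 genes with no pooled summit. The 13 filled points run from 185 at Rab19 to 581 at Rab5, and 5 lie right of the dotted median of 329.8 for all genes with an IDR summit.

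The Rab genes were grouped by what is known of them. Rabs called conserved and ubiquitous, used in most cells, had an IDR summit at 8 of 13 genes, or 61.5% (35.5 to 82.3%), and a pooled summit at 11 of 13, or 84.6% (57.8 to 95.7%). Neuronal Rabs had 1 of 4 IDR (25.0%, 4.56 to 69.9%) and 3 of 4 pooled (75.0%, 30.1 to 95.4%). The X-linked genes named Rab9 with a letter, called recently duplicated, had 0 of 5 in either list, which by the Wilson interval allows a share of up to 43.4%. The other 11 Rabs had 4 IDR (36.4%, 15.2 to 64.6%) and 7 pooled (63.6%, 35.4 to 84.8%). The intervals of the conserved Rabs lay above the 27.8% and 48.3% of all genes in both lists. These are not separate results, since all 5744 IDR peaks are among the 5744 strongest pooled peaks. The IDR intervals of the conserved, neuronal and duplicated groups overlap one another. All these intervals take genes as independent, although Rab9D, Rab9Db, Rab9E and Rab9Fa are near-identical in coding sequence. The groups were also chosen with earlier results of these data known, so the intervals cannot decide whether groups differ. The differences between groups were not tested. The neuronal count was 2 of 4 when the 5744 strongest peaks of replicate 3 took the place of the IDR list, because Rab3 then entered. Over all genes the share was then 28.7%. Neuronal and duplicated Rabs together had 1 of 9 IDR, or 11.1% (1.99 to 43.5%), and 3 of 9 pooled, or 33.3% (12.1 to 64.6%).

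**Figure D2:**
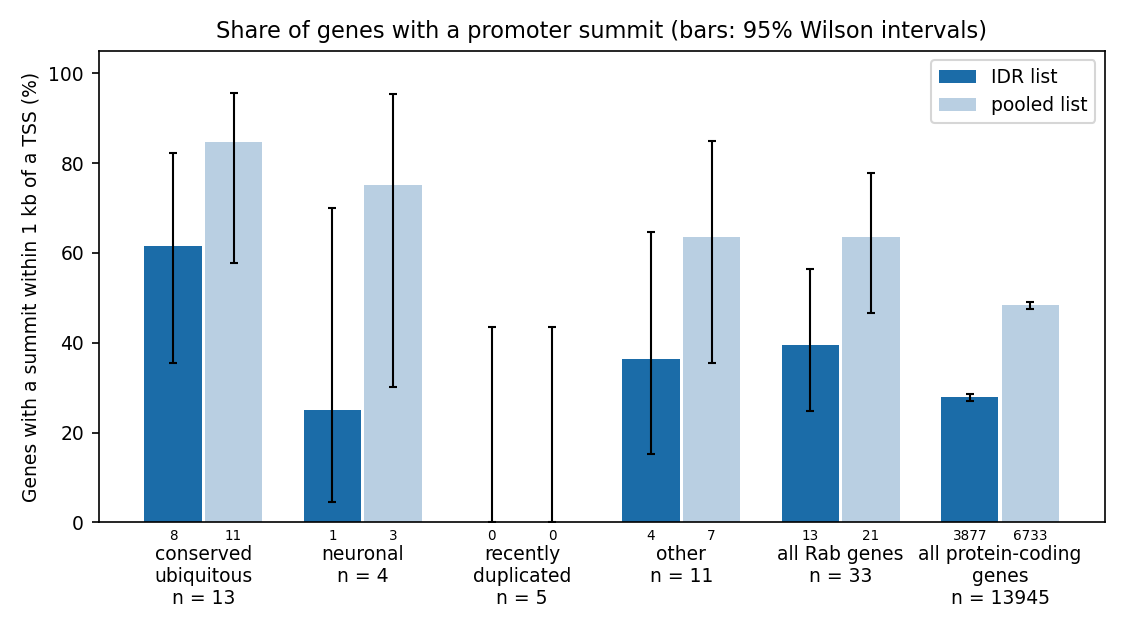
Share of genes with a summit within 1000 bp of a TSS in the IDR list (dark) and the pooled list (light), with 95% Wilson intervals as error bars and the number of genes with a summit under each bar. Conserved Rabs stand at 61.5% and 84.6%, duplicated Rabs at 0 in both lists, and all protein-coding genes at 27.8% and 48.3%.

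The 2 highest Rab signals were at Rab5 and Rab8, both of the conserved group. Rab5, the Rab of early endosomes, had the highest Rab signal (region chr2L:2363581-2364001, summit in an intron, 285 bp upstream of an internal TSS). Its pooled signal was 581, region rank 767 of 5206, with signals of 368 in replicate 1 (rank 710) and 216 in replicate 3 (rank 1086). Rab8, which acts in transport from the Golgi to the plasma membrane, had its summit 4 bp upstream of its TSS (chr3L:19870942-19871236), with a pooled signal of 522, 280.0 in replicate 1 and 243 in replicate 3. Usp32 starts on the opposite strand within 1000 bp of that summit. Both genes ranked between 710 and 1168 in both replicates. The bases around these summits are shown because both hold words known for DNA-binding proteins, in capitals. Each runs 5′ to 3′ on the strand of the Rab gene, from the RefSeq copy of dm6, 100 bases on either side of the summit.
Rab5, chr2L:2363689-2363889: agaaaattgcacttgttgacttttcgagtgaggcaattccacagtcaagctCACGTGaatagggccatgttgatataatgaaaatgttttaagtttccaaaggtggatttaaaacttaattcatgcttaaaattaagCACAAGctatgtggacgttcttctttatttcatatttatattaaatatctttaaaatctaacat
Rab8, chr3L:19870982-19871182: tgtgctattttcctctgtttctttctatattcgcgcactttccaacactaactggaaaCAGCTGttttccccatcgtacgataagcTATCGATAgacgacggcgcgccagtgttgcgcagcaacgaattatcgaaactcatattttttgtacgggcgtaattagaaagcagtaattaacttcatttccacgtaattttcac
In the Rab5 window the capitals mark CACGTG, an E-box form known to be bound by E(spl) proteins, and CACAAG, an N-box form, 47 and 39 bp from the summit. In the Rab8 window they mark CAGCTG, an E-box form of proneural factors, and TATCGATA, the word of the promoter factor DREF, whose centre is 11 bp from the summit.

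Among Rab7, Rab1, Rab11 and Rab14, of the same group, pooled signals of the strongest region ran between 200.2 and 314. Rab7, the Rab of late endosomes and lysosomes, had a region of 2 merged peaks (chr3R:23992860-23993466) with its summit 28 bp downstream of a TSS in the 5′ UTR. Its signals were 314 pooled, 185 in replicate 1 and 141 in replicate 3. Rab1, which serves transport from the endoplasmic reticulum to the Golgi, had its summit 13 bp downstream of its TSS (chr3R:21268907-21269203), with signals of 295 pooled, 167 in replicate 1 and 135 in replicate 3. Rab11, the Rab of recycling endosomes, had a weak region 45 bp upstream of its TSS (chr3R:21111271-21111456), with a signal of 200.2 pooled, 135 in replicate 1 (rank 4321) and 68.4 in replicate 3 (rank 7643). Rab11 therefore fell outside the 5744 strongest peaks of replicate 3 and did not count when those peaks took the place of the IDR list. Rab14, found on endosomes and phagosomes, had 2 regions, one 2 bp upstream of a TSS (chr2L:14355034-14355252) and one in an intron 582 bp downstream (chr2L:14355596-14355863). The intronic region had signals of 272 pooled, 179 in replicate 1 and 103 in replicate 3. The region at the start had 222 pooled, 129 in replicate 1 and 112 in replicate 3, so that replicate 3 alone had the start region higher. The window at the Rab14 start holds the most words of the Rab regions and is shown with those of Rab7 and of Rab30, a Rab outside this group, which also hold the DREF word.
Rab14, chr2L:14355043-14355243: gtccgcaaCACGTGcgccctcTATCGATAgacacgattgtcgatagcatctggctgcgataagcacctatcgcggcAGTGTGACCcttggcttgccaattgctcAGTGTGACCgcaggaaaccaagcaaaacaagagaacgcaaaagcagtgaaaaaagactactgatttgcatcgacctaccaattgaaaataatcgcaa
Rab7, chr3R:23992936-23993136: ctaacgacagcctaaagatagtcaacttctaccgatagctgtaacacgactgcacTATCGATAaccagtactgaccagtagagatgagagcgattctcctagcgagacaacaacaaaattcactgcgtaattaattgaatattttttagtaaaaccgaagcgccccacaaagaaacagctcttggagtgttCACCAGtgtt
Rab30, chr2L:7032614-7032814: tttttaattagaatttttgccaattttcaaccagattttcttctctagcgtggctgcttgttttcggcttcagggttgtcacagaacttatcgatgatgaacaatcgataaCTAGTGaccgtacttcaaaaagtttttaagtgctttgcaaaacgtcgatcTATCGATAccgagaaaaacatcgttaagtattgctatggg
Capitals in the Rab14 window mark CACGTG, TATCGATA and, read on the opposite strand, 2 copies of GGTCACACT, the core word of the promoter factor M1BP. In the Rab7 window they mark TATCGATA, 41 bp from the summit, and CACCAG, 94 bp from it. In the Rab30 window they mark TATCGATA, 64 bp from the summit, and CACTAG, read on the opposite strand, 13 bp from it.

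Rab18, known for lipid droplets and the endoplasmic reticulum, was linked mainly through a neighbour. Its stronger region (chrX:5672459-5672900) had signals of 506 pooled, 298 in replicate 1 and 205 in replicate 3. It lay 896 bp upstream of the Rab18 TSS and 26 bp from a TSS of RpL35, a ribosomal protein gene on the opposite strand. A second, weaker region lay in a coding exon of Rab18, 177 bp downstream of its TSS (chrX:5671403-5671866), with signals of 199.7 pooled, 84.8 in replicate 1 (rank 8159) and 108 in replicate 3 (rank 3954). Counting a summit for the nearest start alone thus kept Rab18 through the weaker region.

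Of the remaining conserved Rabs, Rab35, Rab10 and Rab4 had only pooled summits, and Rab21 and Rab6 had none. Rab35, which acts at the plasma membrane, had a pooled signal of 180.4 (127 in replicate 1, 54.4 in replicate 3), just under 184, the lowest signal of the IDR list. Rab10, needed for polarised secretion of basement membrane in fly follicle cells, had 113 pooled, 81.2 in replicate 1 and 21.2 in replicate 3, the last at rank 27021 of 30000. Rab4, a Rab of fast recycling, had 106 pooled, 57.6 in replicate 1 and 64.3 in replicate 3. Its pooled summits were nearer to the start of another gene, so Rab4 was lost when a summit counted for the nearest start alone. Rab6, a Golgi Rab, differed between replicates. Replicate 1 listed a peak with its summit 1 bp from the Rab6 TSS (signal 153, rank 3562), whereas the nearest summits were 2215 bp away in replicate 3 and 2137 bp away in the pooled list. The cause of that difference was not tested. Rab21, an endosomal Rab, had its nearest pooled summit 2433 bp away and its nearest replicate 3 summit 1262 bp away.

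The neuronal Rabs ranged from an IDR region to no peak at all. Rab26, linked to synaptic vesicles and secretory granules, had an intronic region 360 bp upstream of an internal TSS (chr3L:21321789-21322252), with signals of 281 pooled, 180.0 in replicate 1 and 107 in replicate 3. It was lost when only the start of the Ensembl canonical transcript was used, so that the neuronal count became 0 of 4. Rab3, the synaptic vesicle Rab, had a pooled signal of 154 with its summit 40 bp from the TSS, 68.5 in replicate 1 (rank 10500) and 86.5 in replicate 3 (rank 5624). Rab27, a Rab of regulated secretion, had 133 pooled, 65.1 in replicate 1 and 63.9 in replicate 3, 78 bp from its TSS in the pooled list. That pooled summit was nearer to the start of mei-38, and Rab27 was lost when a summit counted for the nearest start alone. RabX4, a fly Rab known from neurons, had its nearest summit 14220 bp away in replicate 1 and 14313 bp away in the pooled list.

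The 5 recently duplicated genes, Rab9D, Rab9Db, Rab9E, Rab9Fa and Rab9Fb, had no summit within 1000 bp in the IDR, pooled, replicate 1 or replicate 3 list. Their nearest pooled summits were 3679, 1373, 14171, 19935 and 21391 bp away. RabX2, which was grouped with the other Rabs, also had none, and its coding sequence shared 88.0 to 88.2% of its bases with those of Rab9D, Rab9Db, Rab9E and Rab9Fa. The coding sequences of Rab9D, Rab9Db, Rab9E and Rab9Fa shared 98.1 to 99.2% of their bases in pairs and 70.4 to 70.7% with Rab9, against 81.0 to 81.6% between these 4 and Rab9Fb. Near-identity thus held among 4 of the 5, and Rab9Fb was less like them than RabX2 was. The sequences around the starts are shown for a near-identical pair and for the more diverged copy, 100 bases on either side of the annotated start, on the strand of the gene.
Rab9Db, chrX:10623125-10623325: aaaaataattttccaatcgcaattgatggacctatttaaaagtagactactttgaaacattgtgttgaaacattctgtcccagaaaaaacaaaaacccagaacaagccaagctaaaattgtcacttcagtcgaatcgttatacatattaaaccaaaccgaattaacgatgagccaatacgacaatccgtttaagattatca
Rab9Fa, chrX:10950930-10951130: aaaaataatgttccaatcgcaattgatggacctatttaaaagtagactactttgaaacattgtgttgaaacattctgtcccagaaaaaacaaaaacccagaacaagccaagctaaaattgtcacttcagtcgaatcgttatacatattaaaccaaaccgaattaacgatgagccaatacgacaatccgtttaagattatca
Rab9Fb, chrX:10952386-10952586: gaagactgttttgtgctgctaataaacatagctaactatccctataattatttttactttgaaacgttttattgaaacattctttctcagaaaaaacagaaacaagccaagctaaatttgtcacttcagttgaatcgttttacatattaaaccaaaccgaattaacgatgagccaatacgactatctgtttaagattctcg
Rab9Db and Rab9Fa had the same base at 200 of these 201 positions, and Rab9Db and Rab9Fb at 129 without gaps. No listed word was found in the 3 windows, which are therefore all in lower case, and this says only that those letters are not there.

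Repeated sequence and absence of peaks went together at 4 of the 5 duplicated genes and over all genes, but not at every Rab gene. How reads from near-identical places were treated is not given in the sources used here. Of the 32-base words within 1000 bp of the start, 43.0% occurred once in the assembly at Rab9Fa, 45.2% at Rab9E, 45.4% at Rab9Db and 53.2% at Rab9D, against 100% at all 17 conserved and neuronal Rabs. RabX2 had 83.3%. Rab9Fb, at 97.1%, had no summit within 1000 bp in any list either, nor had Rab21, RabX4, RabX1 and RabX5, all at 100%. Over all genes, an IDR summit lay at 8.56% of the 701 genes under 90% unique and at 28.8% of the other 13244. For 4 of the 5 copies the share of unique sequence and the group cannot be told apart.

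The other Rabs with an IDR region were Rab32, Rab39, Rab30 and Rab19. Rab32 (lightoid), which acts in the making of pigment granules, was strongest, with its summit in the 5′ UTR 39 bp downstream of a TSS (chr2R:9186132-9186523) and signals of 448 pooled, 228 in replicate 1 and 238 in replicate 3. Rab39 had a signal of 392 (217 in replicate 1, 183 in replicate 3) at chrX:7734407-7734701, 362 bp upstream of its TSS and 90 bp from a TSS of Pdp on the opposite strand. Rab30, a Golgi Rab in mammals, had 251 (129 in replicate 1, 135 in replicate 3) at chr2L:7032660-7032775, 108 bp upstream of its TSS and 7 bp from that of Caper. Both were lost when a summit counted for the nearest start alone. Rab19 had the weakest Rab region, 185 pooled, 95.2 in replicate 1 (rank 7089) and 85.9 in replicate 3 (rank 5678), in a coding exon 164 bp downstream of a TSS (chr3L:8297101-8297564). Rab2, a conserved Rab that acts at the Golgi and in delivery to lysosomes, had its summit 16 bp upstream of its TSS (chr2R:6696654-6696793). Its signals were 289 pooled, 166 in replicate 1 and 130.0 in replicate 3.

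Of the other Rabs without an IDR region, Rab40, a Rab with a SOCS box, had 182 in the pooled list, and Rab23, which acts in planar polarity of the fly wing, had 165. Rab9, which in mammals serves transport from late endosomes to the Golgi, had 103. RabX6 had a summit within 1000 bp in replicate 3 alone (signal 45.2, rank 12496, 53 bp from the TSS), and RabX1, RabX2 and RabX5 had none in any list. The members just inside and just outside the IDR list were Rab19 at 185 and Rab40 at 182, on either side of the lowest IDR signal of 184. All 8 Rab genes with a pooled summit alone also had a summit within 1000 bp in both replicate lists. The pooled list was called on both replicates together, so this overlap is partly fixed by that choice. No matching share over all genes was computed.

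Of the 13 Rab genes with an IDR summit, 12 had a summit among the 5744 strongest peaks of replicate 1, 12 among those of replicate 3, and 11 in both, the exceptions being Rab19 and Rab11. The IDR list was itself made from the replicate lists, so overlap with them is partly fixed by that choice. Of the 15 distinct Rab regions, 12 (80.0%) overlapped one of the 5744 strongest peaks in both replicates, against 77.9% of all 5206 regions. Any listed peak was overlapped in both replicates by all 15 Rab regions, against 98.5% of all regions. Rab32 ranked 1233 among the 5206 regions, 1784 in replicate 1 and 884 in replicate 3. Rab8 ranked 936 among the regions, 1168 in replicate 1 and 844 in replicate 3, and both genes were thus higher in replicate 3. The stronger Rab18 region ranked 984, with 1041 in replicate 1 and 1198 in replicate 3, and that of Rab39 1586, with 1968 and 1511. Ranks in the middle of the lists were close between replicates at 3 genes. Rab7 ranked 2393 among the regions (2576 in replicate 1, 2524 in replicate 3), Rab1 2674 (3092 and 2715) and Rab2 2764 (3104 and 2896). They were further apart at 3 others. Rab26 ranked 2880 (2707 in replicate 1, 4023 in replicate 3), the intronic Rab14 region 3043 (2725 and 4276) and Rab30 3406 (4643 and 2746). Rab11 and Rab19 stood last of the 13 genes, at region ranks 4687 and 5144. Summits of the replicate peaks lay 0 to 118 bp from the region summit.

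**Figure D3:**
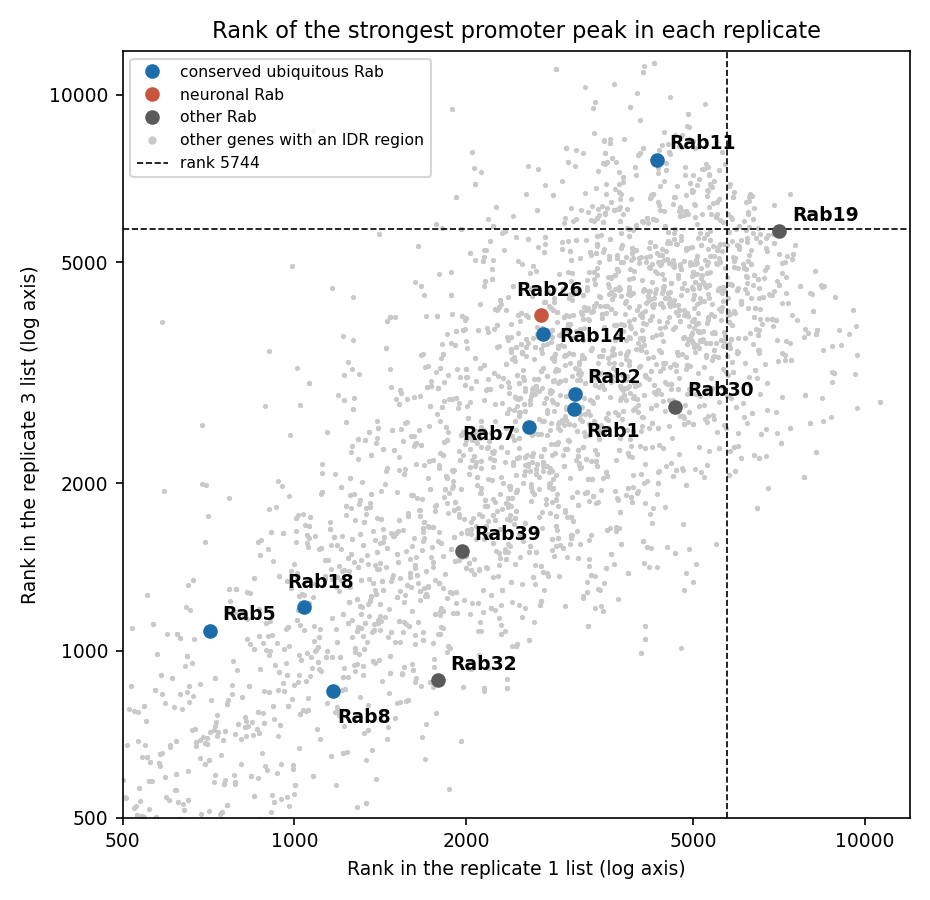
Rank of the strongest peak with a summit within 1000 bp of a TSS in replicate 1 (x axis) and replicate 3 (y axis), both on log axes that cover the ranks of the Rab genes, with genes beyond them not drawn. Coloured points are the 13 Rab genes with an IDR summit and grey points other genes with one. Rab5, Rab18 and Rab8 have the 3 lowest ranks in replicate 1, Rab19 lies past rank 5744 in replicate 1, and Rab11 lies past it in replicate 3.

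Of the 15 Rab regions, 9 (60.0%) had the summit within 50 bp of a TSS of any gene, against 1035 of 3370 promoter regions (30.7%) in the whole list. For 7 of these 9 the TSS was that of the Rab gene, and for the other 2 that of RpL35 or Caper. The summit was downstream of the nearest Rab TSS in 6 of 15, and 12 of 15 had the Rab gene's own TSS as the nearest one. At the 3 others the nearest TSS was that of RpL35, Pdp or Caper. For the downstream and nearest-TSS counts, shares over all promoter regions were not computed. Another gene also started within 1000 bp of further summits. These genes were Usp32 at Rab8, Epp at Rab7, Mob4 at Rab2, l(2)34Fd at both Rab14 regions and RpL35 at the weaker Rab18 region.

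**Figure D4:**
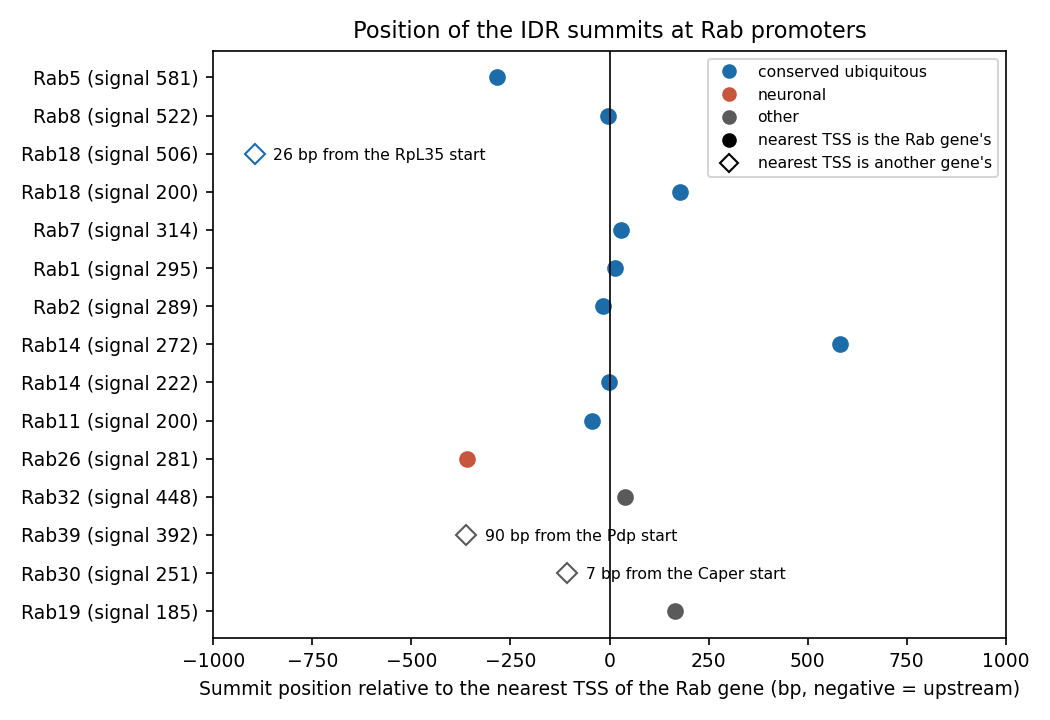
Position of the 15 IDR summits at Rab promoters, in bp from the nearest TSS of the Rab gene, negative being upstream, with the pooled signal beside each name. Open diamonds are summits nearer to the start of another gene, namely RpL35, Pdp and Caper. The summits of Rab8, Rab14, Rab1, Rab2, Rab7, Rab32 and Rab11 lie within 50 bp of zero.

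Starts of neighbouring genes were counted as well. Another protein-coding gene started within 1000 bp of a Rab start at 18 of 33 Rab genes (54.5%), against 42.9% of all genes. This applied to 10 of 13 conserved, 2 of 4 neuronal, 0 of 5 duplicated and 6 of 11 other Rabs. An IDR summit lay at 9 of the 18 Rab genes with such a neighbour and at 4 of the 15 without one. Over all genes the shares were 40.5% of 5985 and 18.3% of 7960. A neighbouring start thus moved with the presence of a summit in all genes and with the Rab groups, and its part in the group counts was not tested.

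TATCGATA, the DREF word, was the most frequent of the 10 words at Rab regions. It lay within 100 bp of 5 of 15 Rab summits (33.3%), at Rab8, Rab7, Rab2, Rab14 and Rab30, against 6.02% of all 3370 promoter regions of the IDR list. Within 100 bp of the canonical start it was found at 10 of 33 Rab genes (30.3%), against 7.51% of all genes. These were Rab2, Rab6, Rab7, Rab8, Rab19, Rab27, Rab30, Rab35, Rab40 and RabX6. Of these 10, 5 had an IDR summit, 8 a pooled one, and all 10 a summit in at least 1 of the 4 lists. Of the other 23 Rab genes, 8 had an IDR summit, 13 a pooled one and 13 a summit in any list. Over all genes an IDR summit lay at 40.4% of 1047 with the word and at 26.8% of 12898 without it. The shares with a pooled summit were 60.0% with the word and 47.3% without it, and those with a summit in any list 67.6% and 53.2%. CACGTG lay within 100 bp of 3 Rab summits, those of Rab5, Rab14 at its start and Rab18 on the RpL35 side (20.0% against 3.92% of promoter regions). Within 100 bp of the canonical start, however, CACGTG was found at 0 of 33 Rab genes, against 2.92% of all genes. CACGCG, another form bound by E(spl) proteins, lay at the summit of Rab39 alone (6.67% against 8.58%). At canonical starts CACGCG was found at 4 of 33 Rab genes (12.1% against 5.87% of all genes). Of the N-box forms, CACTAG lay at the Rab30 summit (6.67% against 6.35%). The form CACGAG lay at the Rab32 summit (6.67% against 4.99%). The form CACAAG lay at the Rab5 summit (6.67% against 8.52%). The form CACCAG lay at a Rab18 and the Rab7 summit (13.3% against 6.88%). GGTCACACT and CAGCTG each lay at 1 (6.67%, against 3.18% and 14.3%), and GAGAGAG, the word of GAGA factor, at 0 of 15 (against 6.65%). Words were sought on both strands, no word contains another, and a match is a description of the sequence, not a bound site.

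Genes that regulate Rabs or act with them carried IDR summits at 26 of 61 (42.6%, 31.0 to 55.1%), beside the 27.8% of all genes, with a median signal of 262, against 329.8. Genes of the membrane cycle, which escort and lipid-modify Rabs, had 3 of 4 (Rep, Gdi and RabGGTb). The Gdi summit was 676 bp from Gdi and 78 bp from CG33298, and the strongest RabGGTb summit was 791 bp from RabGGTb and 23 bp from Sbat. With the nearest start alone 2 of 4 were left, Rep and, through a weaker region, RabGGTb. Exchange factors had 8 of 22, GTPase-activating proteins 5 of 13 and effectors 10 of 22. The strongest was sky, the GTPase-activating protein Skywalker of synapses, with 907, 176 bp from its TSS. Next were nuf, the Rab11 effector Nuclear fallout, with 863, and Mon1, which with Ccz1 activates Rab7, with 841. Rbsn-5, the Rab5 effector Rabenosyn-5, had 699, and SIDL, from the list of exchange factors, had 637. Further down stood btsz, a synaptotagmin-like protein, with 601, Rab3GAP1, a subunit of the Rab3 GTPase-activating complex, with 470.4, and GAPcenA, of the TBC domain family, with 467. Of these 8, Rbsn-5, SIDL, Rab3GAP1 and GAPcenA had a summit nearer to the start of another gene (PAPLA1, CG12241, CG14352 and CG7182). Counting a summit for the nearest start alone left 16 of 61 (26.2%), beside 20.8% of all genes. Ccz1, the partner of Mon1, had 255. Rabex-5, an exchange factor of Rab5, had no pooled summit within 1000 bp. Both were named after their values were seen.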

How the data were processed

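Peak lists of 2 ChIP-seq replicates were analysed. Per the labels' protocols, chromatin was sonicated to 200 to 800 bp. Per the deposited file descriptions, each replicate list and the pooled list were made with a control, on dm6, and the IDR list was derived from them. Information on the aligner, the peak caller, the IDR threshold and the handling of repeated reads is not given in the sources used here. Signal, as deposited, is the authors' value per peak within its list. The deposited −log10 q-value is capped and was not used. All 5744 IDR peaks are among the 5744 strongest pooled peaks.

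Summits came from the deposited offset, held within the peak. Overlapping IDR peaks (at least 1 bp) were merged, keeping the strongest summit, and summits were linked to every gene with a TSS within 1000 bp, over 13945 genes and 19607 TSS positions of Ensembl release 115. Pooled and replicate peaks were not merged. The linking was checked on simulated data. Words were sought in 201 bp. Uniqueness used 32-base words, and coding sequences were aligned globally, identity being a share of the shorter sequence. Python 3.11.15, NumPy 2.4.6, SciPy 1.17.1 and Biopython 1.88 were used.

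The members, groups, word list and regulator list were chosen with earlier results of these data known. In the regulator list, 61 of 64 symbols matched the annotation, and the 8 of highest signal were named. Every Rab gene was named. Alternatives were other windows, other ways of linking, stricter lists and each replicate alone. The neuronal and duplicated lists are short, and replicates allow no test between conditions.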

Additional observations from a re-analysis of the deposited data

How the results depend on the processing

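Counts were compared under 85 alternative values for 10 results, of which 70 stayed within 1.5 times the reported value and 15 did not. Raw counts and medians were compared, without the shares over all genes, and a duplicated count that stayed 0 was taken as unchanged. With a window of 5 kb, 24 Rab genes had an IDR summit, including 3 neuronal and 2 duplicated ones, beside 45.9% of all genes. In the pooled list 2 duplicated genes had a summit at 5 kb, beside 66.8% of all genes. With 2 kb there were 2 neuronal (IDR) and 1 duplicated (pooled). The stronger 50% of the IDR list left 7 Rab genes, 5 conserved, 0 neuronal and 10 regulators, beside 16.8% of all genes, and moved the median Rab signal to 448, a shift set by the stricter limit. The canonical start alone left 0 neuronal Rabs and 10 of 33 Rab genes, beside 25.6% of all genes, with Rab14, Rab26 and Rab32 lost. The nearest start alone left 16 regulators and 11 of 33 Rab genes, beside 20.8% of all genes. In the pooled list it left 18 of 33 Rab genes, beside 41.2% of all genes, with Rab27, Rab30 and Rab4 lost. A wider conserved list, with 7 more Rabs added, had 18 of 20 pooled. The 5744 strongest peaks of replicate 3 alone gave 13 Rab genes, 7 conserved and 2 neuronal, beside 28.7% of all genes. Those of replicate 1 alone gave 15 Rab genes, 10 conserved and 1 neuronal, beside 27.5%. Replicate lists have their own signal scale, so no median was computed from them. No paired analysis was possible because there is 1 group. Depth is unknown and limits what an absent peak can show. The fixed length of the lists also sets how weak a listed peak can be.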

Other observations

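IDR regions also lay inside 3 Rab genes beyond 1000 bp of a start. Rab9 had one in an intron 1879 bp downstream of its TSS (chr2L:19434360-19434557), with signals of 301 pooled, 171 in replicate 1 and 119.9 in replicate 3, while its start had only the weak pooled peak of 103. Rab32 had one in an intron (chr2R:9183543-9183794), 2160 bp upstream of an internal TSS, with 304 pooled, 217 in replicate 1 (rank 1950) and 92.1 in replicate 3 (rank 5149). Rab11 had an intronic region 1132 bp downstream of its TSS (chr3R:21112308-21112771), with 219.9 pooled, 97.7 in replicate 1 and 126 in replicate 3, beside 200.2 pooled at its start. Of these 3 genes, Rab9 alone had no IDR summit within 1000 bp of a start. Of the 13 Rab genes on the X, 2 (15.4%) had an IDR summit at a start, against 28.3% of the 2196 genes on that arm, and 6 of the 13 are the duplicated copies and RabX2.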
